A study of Mus musculus with 12 samples.

Results

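The mouse genes of fatty acid uptake, storage and oxidation were followed in cardiomyocytes (CMs) that had lost Srf, the gene for serum response factor, either after birth or in adulthood. The set held 38 genes out of 23337 in the count tables, chosen by symbol and sorted into 8 steps: 3 genes of uptake and transport, 4 of activation and thioesterases, 5 of the carnitine shuttle and malonyl-CoA, 13 of beta-oxidation, 3 of the electron transfer flavoprotein, 4 of storage, 4 of lipolysis and 2 uncoupling proteins. All 38 passed the filter on low counts in every comparison. KO animals were Srf F/F and CTRL animals Srf F/+, so CTRL CMs kept 1 intact copy. All of them also carried a Rosa fluorescent protein reporter and received AAV9-cTNT-Cre, in which the cardiac troponin T promoter restricts Cre to CMs. Neonatal KO and CTRL animals were injected at P1 and their CMs isolated at P14, whereas adult animals were injected at P60 and their CMs isolated at P90. The viral dose made mosaic hearts of mixed genetic background, and fluorescent CMs were sorted by flow cytometry before RNA extraction. Sorting thus selected CMs by the Cre reporter and not by loss of Srf. By immunostaining, the study found SRF missing from most but not all fluorescent CMs. It proposes that imperfect sorting of large CMs likely explains the weaker Srf depletion in sorted cells.

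RNA was sequenced in 12 samples, 3 in each of the groups P14 CTRL, P14 KO, P90 CTRL and P90 KO, with total counts of 9740389 to 23103460. Levels are given as CPM, the depth-scaled counts with library sizes adjusted by edgeR's TMM factors, and as CPM per kb of exon where genes are compared with each other. Unless another test is named, a gene was called lower or higher when the Benjamini-Hochberg adjusted p-value of edgeR's quasi-likelihood test over all genes was under 0.05, and fold changes are log2 values of KO over CTRL with their standard error (SE). The targeted gene stood lower in every KO sample than in every CTRL sample of its stage, and the difference passed the edgeR test in adult KO but not in neonatal KO. Srf measured 64.0, 57.1 and 49.4 CPM in the P14 CTRL samples and 32.1, 27.5 and 9.75 CPM in the P14 KO samples, a log2 fold change of -1.30 ± 0.36 (adjusted p = 0.0628 by edgeR, 0.00224 by DESeq2). At P90 it measured 71.2, 59.1 and 81.1 CPM in CTRL and 32.9, 28.9 and 28.1 CPM in KO (-1.23 ± 0.13, adjusted p = 0.00347). P14 KO replicate 3 had the lowest Srf of all 12 samples. Sex was mixed: at least 100 Y-linked counts were found in replicate 1 of P14 CTRL and in replicate 3 of both P90 CTRL and P14 KO, but in 0 samples of P90 KO.

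Long-chain fatty acids are the main fuel of the mature heart. They enter the CM from lipoproteins and albumin, are bound by carrier proteins and joined to coenzyme A, and cross into the mitochondrion as carnitine esters, a passage that malonyl-CoA blocks. Inside, each turn of beta-oxidation shortens the chain through dehydrogenation, hydration, a further dehydrogenation and thiolysis, and the electrons of the first step pass through the electron transfer flavoprotein to the respiratory chain. Fatty acids that are not burned at once are stored as triglyceride in lipid droplets and released by lipases.

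In neonatal KO most genes of beta-oxidation and all genes of the electron transfer flavoprotein were lower than in CTRL, together with Dgat2, Plin5, Ces1d and Ucp3, whereas in adult KO no gene of the set passed the test. In neonatal KO, 19 of the 38 genes were called lower and 1, Ucp2, higher. Among all 12546 genes tested there, 4.6% were called lower and 3.99% higher. The median log2 fold change of the 38 was -0.53, against 0.0011 over all genes tested, and 36 of the 38 fold changes were negative. For 27 genes every KO sample lay below every CTRL sample, for 1 every KO sample lay above, and for 10 the groups overlapped. Over all genes tested, 16.7% lay wholly below and 16% wholly above. The count of 19 rested on the KO samples: it was 7 without P14 KO replicate 1, 3 without replicate 2 and 3 without replicate 3. The 3 genes called in every alternative fit were Echs1, Dgat2 and Ces1d, while the other 17 called genes passed in 5 to 13 of 15 alternative fits, and all 20 kept their direction in every one.

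In adult KO, 0 of the 38 genes were called by edgeR in either direction, with 3 at an unadjusted p under 0.05 (Ces1d and Acot2 lower, Ucp2 higher) and 1 called by DESeq2 (Ces1d). The test itself called few genes at this stage: 0.152% of 11808 genes were lower and 0.237% higher. DESeq2 called 164 lower and 148 higher of 19496 genes with a fold change. The median log2 fold change of the 38 was 0.017, with 18 negative and 20 positive, against 0.0057 over all genes tested. For 5 genes every KO sample lay below every CTRL sample (Lpl, Acot2, Cpt1b, Pnpla2 and Ces1d) and for 0 above, where 11.2% and 10.3% of all genes did so. Without P90 CTRL replicate 3, 1 gene was called lower. The difference between the stages was tested on its own.

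**Figure D1:**
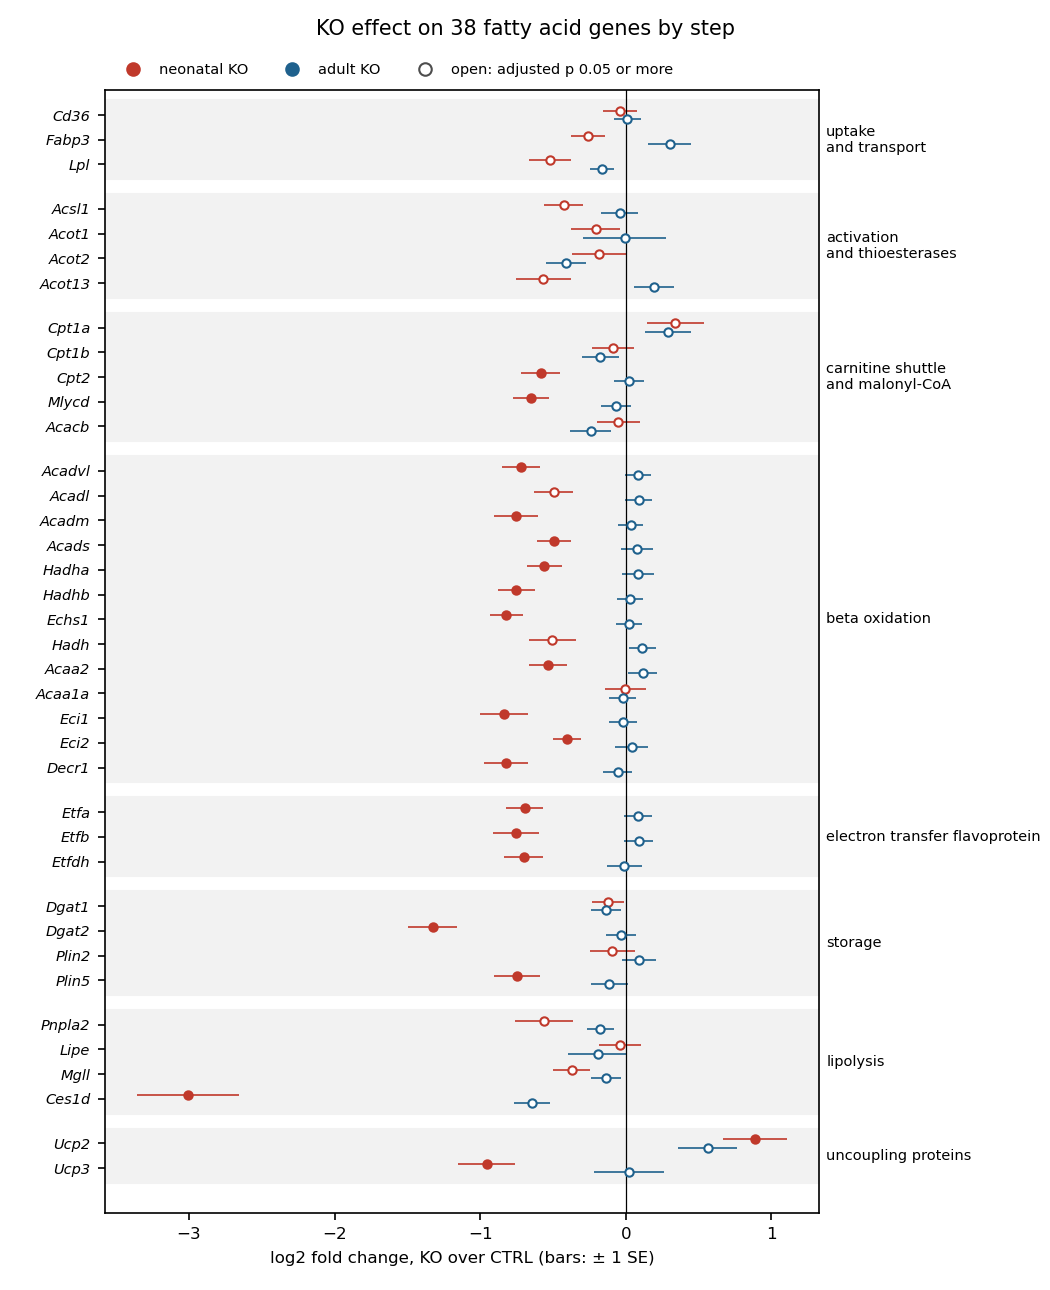
The log2 fold change of KO over CTRL (horizontal axis, bars are ± 1 SE) is plotted for each of the 38 genes, in red for neonatal KO and in blue for adult KO, with filled points for genes called at an adjusted p under 0.05. The neonatal points of beta-oxidation and of the electron transfer flavoprotein lie between -0.84 and -0.0019, whereas their adult points lie between -0.057 and 0.12.

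**Figure D2:**
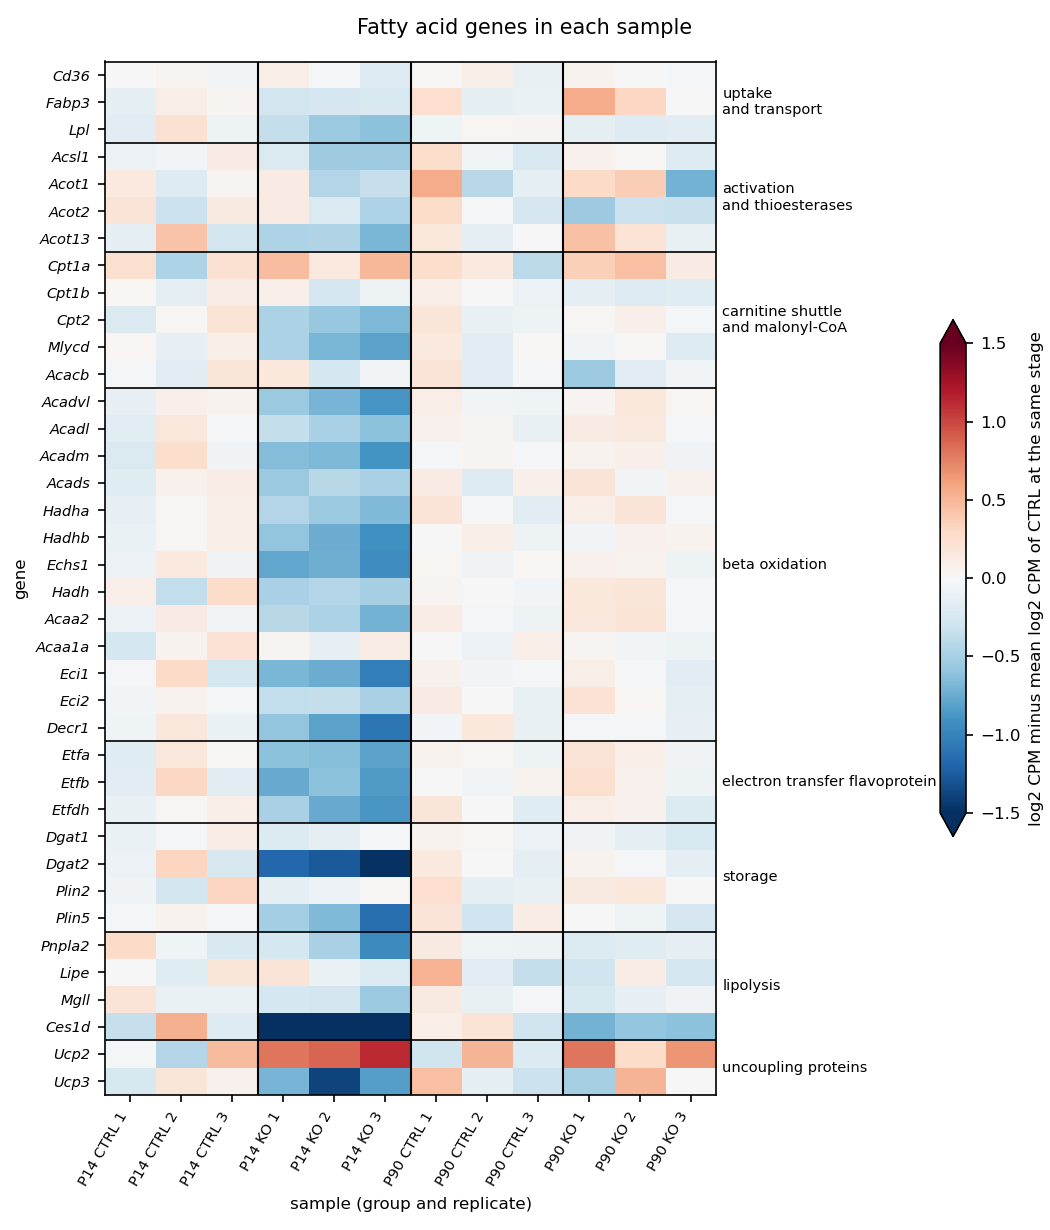
Each row is a gene and each column a sample, and the color is the log2 CPM minus the mean log2 CPM of the CTRL samples of the same stage, limited to 1.5 in either direction. The 3 P14 KO columns are blue through beta-oxidation and the electron transfer flavoprotein apart from Acaa1a, while the P90 KO columns stay pale through the same steps, and all 3 are blue for Ces1d and red for Ucp2.

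At the first step, uptake and transport, 0 of 3 genes were called in neonatal KO, with Lpl at an unadjusted p under 0.05 and called by DESeq2. Fabp3, the heart-type fatty acid binding protein and the gene with the highest level per kb of the whole set, measured 2485, 2915 and 2811 CPM in P14 CTRL and 2254, 2302 and 2334 CPM in P14 KO. In P90 CTRL it stood at 2915, 2202 and 2283 CPM and in P90 KO at 3591, 3045 and 2459 CPM. The P14 groups did not overlap, but the neonatal fold change of -0.26 ± 0.12 did not pass (adjusted p = 0.208), nor did the adult one of 0.30 ± 0.15 (adjusted p = 0.338). Lpl, lipoprotein lipase, which frees fatty acids from circulating triglyceride, measured 2069, 2692 and 2186 CPM in P14 CTRL and 1797, 1563 and 1499.6 CPM in P14 KO (-0.52 ± 0.14, adjusted p = 0.0623, and 0.00913 by DESeq2). Its P14 groups did not overlap either. For Cd36, the fatty acid translocase of the plasma membrane, the neonatal value was -0.038 ± 0.12 (adjusted p = 0.886) and the adult value 0.012 ± 0.090 (adjusted p = 0.967).

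Activation and thioesterases, which join fatty acids to coenzyme A and split the esters again, likewise had 0 of 4 genes called in neonatal KO, with 2 at an unadjusted p under 0.05 and the same number called by DESeq2 (Acsl1 and Acot13). Acsl1, the main long-chain acyl-CoA synthetase of the heart, measured 1521, 1578 and 1771 CPM in P14 CTRL and 1396, 1119 and 1119 CPM in P14 KO (-0.43 ± 0.13, adjusted p = 0.0905). Acot13, a thioesterase and the highest gene of the step per kb over all 12 samples, although Acsl1 was higher at P14, measured 241, 358 and 220.0 CPM in P14 CTRL and 193, 196 and 166 CPM in P14 KO (-0.57 ± 0.19, adjusted p = 0.102). At P90 its levels were 421, 340.4 and 375 CPM in CTRL and 512, 434 and 349 CPM in KO (0.19 ± 0.14, adjusted p = 0.527). All P14 KO values of both genes lay below all P14 CTRL values. The cytosolic Acot1 and the mitochondrial Acot2 are near-identical neighbors on chromosome 12, 15626 bases apart, so reads may have been divided between them and their counts are uncertain. Their neonatal values were -0.21 ± 0.17 and -0.18 ± 0.18, and in adult KO Acot2 stood at -0.41 ± 0.13 (adjusted p = 0.179).

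In the carnitine shuttle and its control by malonyl-CoA, 2 of 5 genes were called lower in neonatal KO. Cpt2, which turns carnitine esters back into acyl-CoA in the mitochondrial matrix, measured 485, 572 and 648 CPM in P14 CTRL and 405, 381 and 353 CPM in P14 KO (-0.58 ± 0.13, adjusted p = 0.0343). In adult CMs Cpt2 stood at 684, 558 and 569 CPM in CTRL and 608, 635 and 589.5 CPM in KO (0.023 ± 0.10). The P14 groups did not overlap, and KO retained 66.9% of the CTRL mean at P14 and 101% at P90. Mlycd, malonyl-CoA decarboxylase, which removes the inhibitor of the shuttle, measured 293, 264 and 305 CPM in P14 CTRL and 206, 179 and 165 CPM in P14 KO (-0.65 ± 0.12, adjusted p = 0.0196). Its adult levels were 324, 262 and 297 CPM in CTRL and 285, 296 and 257 CPM in KO (-0.068 ± 0.10), so the groups were separate at P14 and overlapped at P90. Acacb, the acetyl-CoA carboxylase that makes the inhibitor at the mitochondrion, stood at -0.052 ± 0.15 (adjusted p = 0.874). The ratio of Mlycd to Acacb per kb was 2.72, 2.70 and 2.45 in the P14 CTRL samples and 1.69, 1.97 and 1.55 in the P14 KO samples, without overlap. At P90 the ratios overlapped, at 1.79, 1.87 and 1.92 in CTRL and 2.65, 2.12 and 1.67 in KO.

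Cpt1a and Cpt1b, the liver and muscle forms of the enzyme that commits fatty acids to the mitochondrion, did not pass in either KO comparison. Cpt1a stood at 0.34 ± 0.19 in neonatal KO (adjusted p = 0.318) and 0.29 ± 0.16 in adult KO (adjusted p = 0.385). For Cpt1b the values were -0.089 ± 0.14 and -0.17 ± 0.13. Levels of Cpt1b are uncertain, because 2744 of its 2894 exon bases are shared in the tables with another gene on the same strand, BC090627, which had 0 counts in all samples, and Cpt1b itself had a mean count of 259. The Cpt1a to Cpt1b ratio is for that reason not given.

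Beta-oxidation was the step with most called genes: 10 of 13 were lower in neonatal KO, and for 12 of 13 all KO samples lay below all CTRL samples. Acaa1a was the exception. The 4 acyl-CoA dehydrogenases, which open each turn of the cycle on chains of decreasing length, had neonatal fold changes of -0.75 to -0.49, and 3 of them passed. Acadvl, for very long chains, measured 2212, 2531 and 2501 CPM in P14 CTRL and 1632, 1487 and 1301 CPM in P14 KO (-0.72 ± 0.13, adjusted p = 0.0186). Acadm, for medium chains, measured 1255, 1752 and 1406 CPM in P14 CTRL and 931, 913 and 784 CPM in P14 KO (-0.75 ± 0.15, adjusted p = 0.0242). The short-chain Acads was lower too, at 210.3, 249 and 256 CPM in P14 CTRL and 162, 178 and 170.3 CPM in P14 KO (-0.49 ± 0.11, adjusted p = 0.0352). Only the long-chain Acadl missed the threshold by edgeR, with -0.49 ± 0.13 (adjusted p = 0.0567, and 0.00699 by DESeq2). In adult CMs these dehydrogenases had KO levels close to CTRL. Acadvl was at 2489, 2271 and 2230.3 CPM in P90 CTRL and 2395, 2611 and 2374 CPM in P90 KO. Acadm was at 1766, 1846 and 1772 CPM in P90 CTRL and 1864, 1899 and 1736 CPM in P90 KO. Acads was at 337, 271 and 326 CPM in P90 CTRL and 354, 303 and 326 CPM in P90 KO. The adult fold changes of the 4 dehydrogenases were 0.036 to 0.090, with SEs of 0.086 to 0.11.

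Hadha and Hadhb, the subunits of the mitochondrial trifunctional protein, which carries out the last 3 reactions on long chains, were both lower. Hadha measured 1353, 1496 and 1580.3 CPM in P14 CTRL and 1083, 1004 and 928 CPM in P14 KO (-0.56 ± 0.12, adjusted p = 0.0274). Hadhb measured 1510.0, 1637 and 1721 CPM in P14 CTRL and 1073, 971 and 854 CPM in P14 KO (-0.75 ± 0.13, adjusted p = 0.0153). At P90 neither differed from CTRL by more than the spread of the samples: Hadha was at 1628, 1395 and 1271 CPM in CTRL and 1524, 1626 and 1391 CPM in KO. Hadhb was at 2025, 2153 and 1926 CPM in P90 CTRL and 1982, 2129 and 2102 CPM in P90 KO. The 2 genes lie head to head on chromosome 5 (mm10), Hadha at 30118304 to 30154980 on the minus strand and Hadhb at 30155322 to 30184583 on the plus strand. Their promoter windows in RefSeq (GRCm38.p6; 250 bases before to 50 after the RefSeq start) share 228 bases. The Hadhb window ends at 30155302, before the Hadhb start given above, so its RefSeq start is another one, on which the shared length depends. The shared bases are in capitals in the Hadhb window, shown because both subunits of the complex were lower in neonatal KO.
Hadhb, chr5:30155003-30155302, plus strand: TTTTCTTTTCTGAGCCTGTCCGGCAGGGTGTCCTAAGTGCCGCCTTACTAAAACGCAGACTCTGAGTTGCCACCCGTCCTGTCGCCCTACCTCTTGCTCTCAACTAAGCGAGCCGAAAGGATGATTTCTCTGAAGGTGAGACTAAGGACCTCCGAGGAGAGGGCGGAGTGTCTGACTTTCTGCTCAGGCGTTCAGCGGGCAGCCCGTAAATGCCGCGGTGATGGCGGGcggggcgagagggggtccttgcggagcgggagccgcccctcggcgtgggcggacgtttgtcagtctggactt

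Echs1, the short-chain enoyl-CoA hydratase, had the smallest adjusted p-value of the step. It lies on chromosome 7 at 140105723 to 140116423 (minus strand) and measured 365, 428 and 375 CPM in P14 CTRL and 226, 234 and 204 CPM in P14 KO (-0.82 ± 0.11, adjusted p = 0.00972). At P90 its levels were 593, 561 and 594 CPM in CTRL and 608, 606 and 553 CPM in KO (0.022 ± 0.088). KO thus kept 56.8% of the CTRL mean at P14 and 101% at P90. Acaa2, the thiolase that ends the cycle and the gene with the highest level per kb of this step, measured 2685, 3103 and 2771 CPM in P14 CTRL and 2134, 2056 and 1739 CPM in P14 KO (-0.53 ± 0.13, adjusted p = 0.041). At P90 Acaa2 stood at 2235, 2017 and 1954 CPM in CTRL and 2306, 2379 and 2021 CPM in KO. Hadh, the short-chain hydroxyacyl-CoA dehydrogenase, lay below CTRL in every KO sample but did not pass (-0.50 ± 0.16, adjusted p = 0.0942).

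The auxiliary enzymes, which prepare unsaturated chains for the cycle, were lower as well. Eci1, an enoyl-CoA isomerase, measured 564, 703 and 478 CPM in P14 CTRL and 356, 342 and 281 CPM in P14 KO (-0.84 ± 0.17, adjusted p = 0.0225). Decr1, the dienoyl-CoA reductase, measured 609, 714 and 592 CPM in P14 CTRL and 423, 364 and 300.5 CPM in P14 KO (-0.82 ± 0.15, adjusted p = 0.0189). Eci2, another isomerase, moved least of the called genes, from 283, 301 and 287 CPM in P14 CTRL to 225, 227 and 208 CPM in P14 KO (-0.40 ± 0.098, adjusted p = 0.0407). In adult CMs all 3 had overlapping groups. Eci1 was at 583, 545 and 552 CPM in P90 CTRL and 596, 555 and 503 CPM in P90 KO. Decr1 was at 544, 620.2 and 515 CPM in P90 CTRL and 547, 549 and 512 CPM in P90 KO. Eci2 was at 253, 231 and 215 CPM in P90 CTRL and 269, 237 and 209.7 CPM in P90 KO. Acaa1a, a thiolase of the peroxisome rather than of the mitochondrion, stood apart from this step: its P14 groups overlapped at 91.7 ± 14.8 CPM in CTRL and 91.8 ± 7.52 CPM in KO (SD, n = 3 each). A close copy, Acaa1b, makes its count uncertain.

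The electron transfer flavoprotein step was lower throughout in neonatal KO, with 3 of 3 genes called. Etfa and Etfb encode the subunits of the flavoprotein that takes electrons from the acyl-CoA dehydrogenases, and Etfdh the dehydrogenase that passes them to ubiquinone. Etfa measured 775, 991 and 893 CPM in P14 CTRL and 576, 566 and 507 CPM in P14 KO (-0.69 ± 0.13, adjusted p = 0.0194). Etfb measured 979, 1349.6 and 977 CPM in P14 CTRL and 646, 714 and 605 CPM in P14 KO (-0.75 ± 0.16, adjusted p = 0.0252). Etfdh measured 1199.8, 1307 and 1382 CPM in P14 CTRL and 927, 766 and 704 CPM in P14 KO (-0.70 ± 0.14, adjusted p = 0.0218). The 3 fold changes were nearly equal, and KO retained 59.5 to 62.0% of the CTRL mean. At P90, Etfa was at 1254, 1226 and 1152 CPM in CTRL and 1380.2, 1292 and 1163 CPM in KO. Etfb was at 1229.7, 1194 and 1273 CPM in P90 CTRL and 1459.9, 1289 and 1165 CPM in P90 KO. Etfdh was at 1699, 1488 and 1317 CPM in P90 CTRL and 1604, 1562 and 1292 CPM in P90 KO. None of these adult groups separated, with fold changes of -0.0093 to 0.088 and SEs of 0.095 to 0.12.

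Among the storage genes, 2 of 4 were called lower in neonatal KO. Dgat2, a diacylglycerol acyltransferase, catalyzes the last reaction of triglyceride synthesis and lies on chromosome 7 at 99153663 to 99182713 (minus strand). It measured 556, 737 and 501 CPM in P14 CTRL and 260.5, 246 and 211 CPM in P14 KO (-1.33 ± 0.17, adjusted p = 0.00732). At P90 it was at 916, 830.2 and 751 CPM in CTRL and 863, 815 and 755 CPM in KO (-0.033 ± 0.10). Dgat1, which catalyzes the same reaction, did not pass (-0.12 ± 0.11 in neonatal KO, adjusted p = 0.546). The ratio of Dgat1 to Dgat2 per kb was 0.104, 0.0826 and 0.133 in P14 CTRL and 0.205, 0.227 and 0.289 in P14 KO, and 0.0578, 0.0626 and 0.0639 in P90 CTRL and 0.0571, 0.0565 and 0.0576 in P90 KO. Every P14 KO ratio exceeded every P14 CTRL ratio. Plin5, the lipid droplet coat protein of oxidative tissues, measured 337, 356 and 339.9 CPM in P14 CTRL and 241, 218 and 157 CPM in P14 KO (-0.75 ± 0.16, adjusted p = 0.0265). At P90 Plin5 was at 454, 323 and 428 CPM in CTRL and 399, 379 and 335 CPM in KO (-0.11 ± 0.13). Its groups, like those of Dgat2, were separate at P14 and overlapped at P90. Plin2, a widely expressed coat protein, stood at -0.092 ± 0.15 in neonatal KO (adjusted p = 0.772).

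Of the lipolysis genes, 1 of 4 was called lower in neonatal KO, and it had the largest fold change of all 38. Ces1d is a carboxylesterase with triglyceride hydrolase activity, on chromosome 8 at 93166072 to 93197804 (minus strand). It measured 15.0, 27.7 and 16.7 CPM in P14 CTRL and 3.56, 2.30 and 1.57 CPM in P14 KO (-3.01 ± 0.35, adjusted p = 0.00575), so KO kept 12.5% of the CTRL mean. At P90 it measured 292, 312 and 220.1 CPM in CTRL and 166, 182 and 177 CPM in KO, or 63.7% of CTRL. The groups did not overlap at either stage, and every value lay above the level of 3 counts, which was 0.13 to 0.308 CPM per sample and covers counting error only. The adult fold change of -0.64 ± 0.13 had an adjusted p-value of 0.0554 by edgeR and of 0.000276 by DESeq2, and over the alternatives it ran from 5.44e-06 to 0.285. Related Ces1 genes lie beside Ces1d, and how reads shared among them were counted is not stated. Pnpla2, adipose triglyceride lipase, the rate-limiting lipase of the droplet, measured 626, 490.1 and 436 CPM in P14 CTRL and 425, 365 and 263 CPM in P14 KO (-0.56 ± 0.20, adjusted p = 0.12). At P90 it was at 686, 598 and 592 CPM in CTRL and 540.3, 552 and 563 CPM in KO (-0.18 ± 0.093, adjusted p = 0.372). Its groups separated at both stages without passing the test at either. Mgll, monoacylglycerol lipase, stood at -0.37 ± 0.13 in neonatal KO (adjusted p = 0.113) and Lipe, hormone-sensitive lipase, at -0.039 ± 0.15 (adjusted p = 0.905).

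The uncoupling proteins moved apart. Ucp2 and Ucp3, carriers of the inner mitochondrial membrane, are neighbors on chromosome 7, 6912 bases apart. Ucp2 was higher in neonatal KO, at 569, 430.3 and 810.1 CPM in P14 CTRL and 1015, 1070.3 and 1264 CPM in P14 KO (0.89 ± 0.22, adjusted p = 0.0442). Ucp3, the form of striated muscle, was lower, at 147, 197 and 183 CPM in P14 CTRL and 108, 66.7 and 98.5 CPM in P14 KO (-0.95 ± 0.19, adjusted p = 0.0247). Both pairs of P14 groups were without overlap, and the ratio of Ucp2 to Ucp3 per kb was 2.29, 1.29 and 2.62 in P14 CTRL and 5.58, 9.51 and 7.6 in P14 KO. At P90, Ucp2 was at 44.2, 78.0 and 47.2 CPM in CTRL and 95.0, 66.0 and 86.7 CPM in KO (0.56 ± 0.20, adjusted p = 0.222). Ucp3 was at 116, 77.3 and 67.6 CPM in P90 CTRL and 60.0, 121 and 84.0 CPM in P90 KO (0.024 ± 0.24, adjusted p = 0.975). The Ucp2 call was lost with a sex term and without P14 CTRL replicate 1, P14 CTRL replicate 2 or any 1 of the 3 P14 KO samples, with adjusted p-values over the alternatives of 0.00136 to 0.155. Ucp2 is also expressed in macrophages, and the summed level of 8 macrophage markers was 5.70 to 10.0 CPM in P14 CTRL and 8.99 to 12.9 CPM in P14 KO, with 0 of 5 tested markers called, 1 (Csf1r) at an unadjusted p under 0.05, all 5 fold changes positive and a median of 0.56. Their part in the Ucp2 value was not tested.

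**Figure D3:**
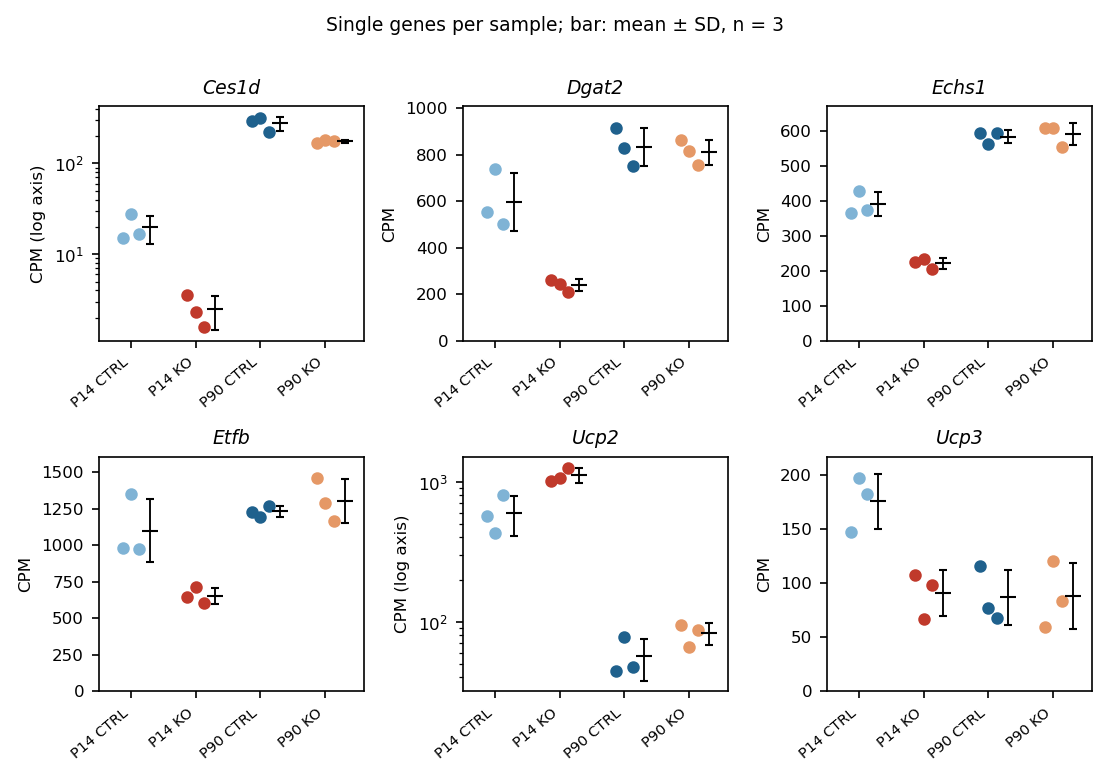
CPM of 6 genes is plotted for every sample of the 4 groups, with the mean ± SD (n = 3) as a bar beside the points. The axes of Ces1d and Ucp2 are logarithmic and the others start at 0. Ces1d, Dgat2, Echs1, Etfb and Ucp3 are lower in all P14 KO samples than in all P14 CTRL samples, Ucp2 is higher, and only Ces1d stays separate at P90.

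The summed level of each step set these single genes side by side. Beta-oxidation summed to 8013 ± 584 CPM per kb in P14 CTRL and 5224 ± 475 CPM per kb in P14 KO (mean ± SD, n = 3 each), so KO held 65.2% of CTRL. The electron transfer flavoprotein step held 60.6%, storage 54.8% and lipolysis 67.8% of the P14 CTRL level. Activation and thioesterases held 72.4%, the carnitine shuttle and malonyl-CoA 73.7% and uptake and transport 83.6%. The uncoupling proteins, led by Ucp2, stood at 141%. KO and CTRL samples did not overlap in any of the 8 sums at P14. At P90 the same figures were 104% for beta-oxidation, 104% for the electron transfer flavoprotein and 96.2% for storage. Lipolysis was the step with the lowest P90 share, at 79.6%, and its P90 groups did not overlap. Its mean sum was 395 CPM per kb in P90 CTRL and 314 in P90 KO, a difference led by Ces1d. Ces1d alone stood at 140 CPM per kb in P90 CTRL and 89.0 in P90 KO, and Pnpla2 at 230 and 203. These sums are weighted to the abundant genes and were not tested. Cpt1b, whose level is uncertain, entered the carnitine sum at 5.82 of 469 CPM per kb in P14 CTRL.

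**Figure D4:**
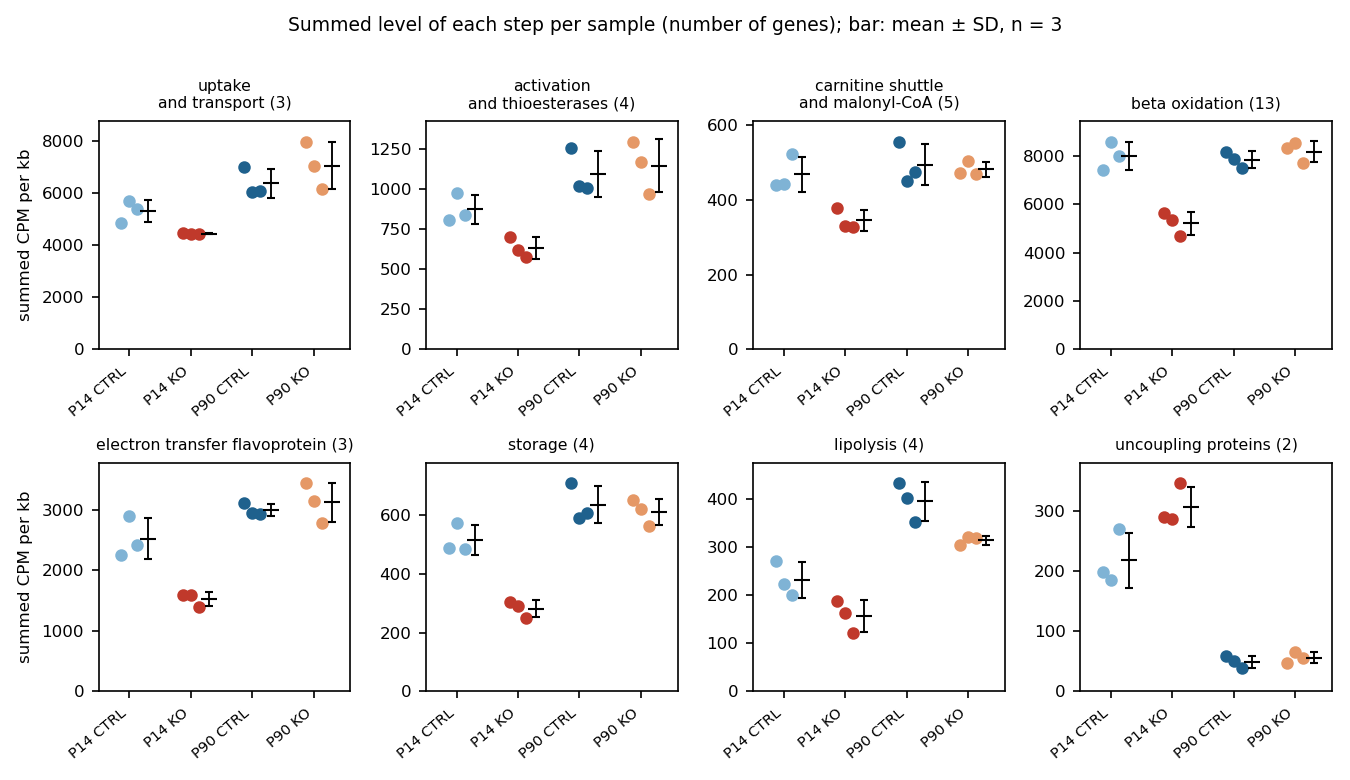
Each panel plots the summed CPM per kb of the genes of a step in every sample, with the number of genes in parentheses and the mean ± SD (n = 3) beside the points, on an axis that starts at 0. The P14 KO samples lie below the P14 CTRL samples in every step other than the uncoupling proteins, where they lie above, and at P90 the groups separate only in lipolysis.

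Among markers of the CM itself, Myh6, the alpha myosin heavy chain, a gene known to be regulated by SRF, held the largest share of the summed level and of its difference between KO and CTRL. The summed level of 8 CM markers (Myh6, Tnnt2, Tnni3, Actn2, Ttn, Pln, Ryr2 and Myl2, with 0 of them undetected) was 91908 to 101190.0 CPM in P14 CTRL and 66803 to 73453 CPM in P14 KO. In P90 CTRL it was 90573 to 98413 CPM and in P90 KO 80843 to 83488 CPM. Myh6 alone accounted for 46990.0 to 62575 CPM in P14 CTRL and 31832 to 38363 CPM in P14 KO, and for 52295 to 60717 CPM in P90 CTRL and 36981 to 42712 CPM in P90 KO. The other 7 markers summed to 38615 to 44918 CPM in P14 CTRL and 34539 to 35090.0 CPM in P14 KO, while at P90 their sum was 37696 to 40300.1 CPM in CTRL samples and 39743 to 43862 CPM in KO samples. Their KO samples were therefore below all CTRL samples at P14 and overlapped with CTRL at P90. In neonatal KO 1 of the 8, Myh6, was called lower and 7 of 8 fold changes were negative, with a median of -0.39. In adult KO 0 of 8 were called by edgeR, with 3 negative (Myh6, Ttn and Ryr2, all 3 called by DESeq2). The stage difference was called lower for 1 of 8, Tnni3. As a percentage of this marker sum, a measure computed after the values had been seen, all 38 genes amounted to 29.8 to 35.9% in P14 CTRL and 29.4 to 33.5% in P14 KO, which overlap. The genes of beta-oxidation and the electron transfer flavoprotein alone amounted to 17.3 to 21.4% in P14 CTRL and 15.0 to 18.0% in P14 KO, which also overlap. At P90 the 38 genes stood at 38.8 to 41.6% in CTRL and 43.5 to 48.9% in KO, without overlap. These comparisons rested on Myh6 and came out differently without it, an alternative chosen after seeing the data. The other 7 markers are not a measure independent of SRF either. From these same samples the study reports Tnni3 and Myl2 lower and Actn2 higher in neonatal KO, and Ryr2 lower. It also found strong SRF binding close to the promoters of Tnni3 and Myl2. As a percentage of the other 7 markers, the 38 genes amounted to 73.2 to 81.6% in P14 CTRL and 60.3 to 68.5% in P14 KO, without overlap. At P90 the shares overlapped, with 89.9 to 106% in CTRL samples and 90.2 to 93.9% in KO samples. Beta-oxidation and the electron transfer flavoprotein amounted to 42.5 to 47.6% of them in P14 CTRL and 30.8 to 36.3% in P14 KO, also without overlap. The part of the CM markers in the fatty acid results was not tested, and in bulk samples fewer cells of a type and less RNA per cell cannot be told apart. Of other cell types, 0 of 8 endothelial, 0 of 7 fibroblast and 0 of 5 macrophage markers tested were called in neonatal KO. Of 6 mural cell markers 1, Cspg4, was called higher, but 4 of the 6 fold changes were negative, with a median of -0.23. DESeq2 called 1 mural marker lower and 1 higher. Adipocyte markers summed to 0.05 to 0.563 CPM in P14 CTRL and 0.202 to 0.383 CPM in P14 KO.

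The KO effects were next compared between the stages in a fit of all 12 samples. Stage cannot be told apart here from the time between injection and isolation, P1 to P14 against P60 to P90. Nor can it be told apart from table or from injection route, which was subcutaneous in pups and intraperitoneal in adults. The difference, neonatal minus adult, was called lower for 8 of the 38 genes and higher for 0, with 24 lower and 0 higher at an unadjusted p under 0.05 and 20 lower and 0 higher by DESeq2. Among all 12841 genes tested, edgeR called 0.958% lower and 0.818% higher. DESeq2 called 590 lower and 304 higher of 21268 genes with a fold change. The share of all genes at an unadjusted p under 0.05 is not given here. The 8 genes were Acadvl, Acadm, Hadhb and Echs1 of beta-oxidation, Etfa and Etfb of the electron transfer flavoprotein, Dgat2 and Ces1d. Ces1d differed most, by -2.35 ± 0.36 (adjusted p = 0.0156), and Dgat2 by -1.28 ± 0.20 (adjusted p = 0.0184). Echs1 differed by -0.83 ± 0.14 (adjusted p = 0.021) and Etfb by -0.83 ± 0.19 (adjusted p = 0.0465). The differences of the other 4 were -0.79 to -0.77. By step, 4 of 13 beta-oxidation genes, 2 of 3 of the electron transfer flavoprotein, 1 of 4 of storage and 1 of 4 of lipolysis passed, and 0 of 3 of uptake, 0 of 4 of activation, 0 of 5 of the carnitine shuttle and 0 of 2 uncoupling proteins. For the step counts of 0, 2, 1, 2 and 1 genes had an unadjusted p under 0.05, and 0, 1, 2 and 0 were called by DESeq2. For Ucp2 the difference of 0.33 ± 0.34 did not pass (adjusted p = 0.649), nor did that of Ucp3, -0.97 ± 0.36 (adjusted p = 0.168). The count of 8 was unsteady. It was 5, 3 and 3 without P14 KO replicates 1, 2 and 3, 13 without P14 CTRL replicate 1, 4, 3 and 0 without P90 CTRL replicates 1, 2 and 3, and 1 and 0 without P90 KO replicates 1 and 2. All 8 genes kept a negative difference in every one of these fits.

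Maturation of the CTRL CMs gave the frame for these differences. Between P14 and P90, 9 of the 38 genes were called higher and 6 lower. Among the 12294 genes tested, 14.5% were higher and 14.9% lower. With total counts as library size, which shifted the median of all genes to -0.13, the split was 5 higher and 8 lower. That setting called 1314 genes higher and 2368 lower over all genes tested. Without P14 CTRL replicate 1, P90 CTRL replicate 1 or P90 CTRL replicate 3, 4 genes were called higher. For 10 genes every P90 sample lay above every P14 sample and for 9 below, against 22.1% and 22.8% of all genes. These CTRL samples are also those of the KO comparisons, and stage cannot be told apart from table, injection route or time since injection.

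The largest changes were those of Ces1d, Ucp2 and Lpl. Ces1d was higher at P90 by 3.80 ± 0.25 on the log2 scale (adjusted p = 4.16e-05), and Lpl by 1.69 ± 0.12 (adjusted p = 5.88e-05), from 2069, 2692 and 2186 CPM at P14 to 7144, 7577 and 7643 CPM at P90. Cd36 was higher by 0.57 ± 0.10 (adjusted p = 0.00386). Ucp2 was lower by most, -3.42 ± 0.29 (adjusted p = 0.000141), and with it Ucp3 (-1.01), Acot1 (-1.25), Cpt1a (-0.90), Mgll (-0.73) and Acaa2 (-0.46). Within beta-oxidation 3 genes were called higher (Acads, Hadhb and Echs1) and 1 lower (Acaa2), and the step's median change was -0.043. Etfa, Acacb and Dgat2 were the other genes called higher, by 0.45, 0.53 and 0.48. Markers of other cells moved between these groups too: 5 of 7 fibroblast and 6 of 8 endothelial markers tested were lower at P90. The fibroblast sum was 117 to 326 CPM in P14 CTRL and 52.1 to 73.4 CPM in P90 CTRL, and the endothelial sum 204 to 445 CPM and 188 to 242 CPM. Their part in the values of Ucp2, Cd36 and Lpl, which those cells also express, was not tested.

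**Figure D5:**
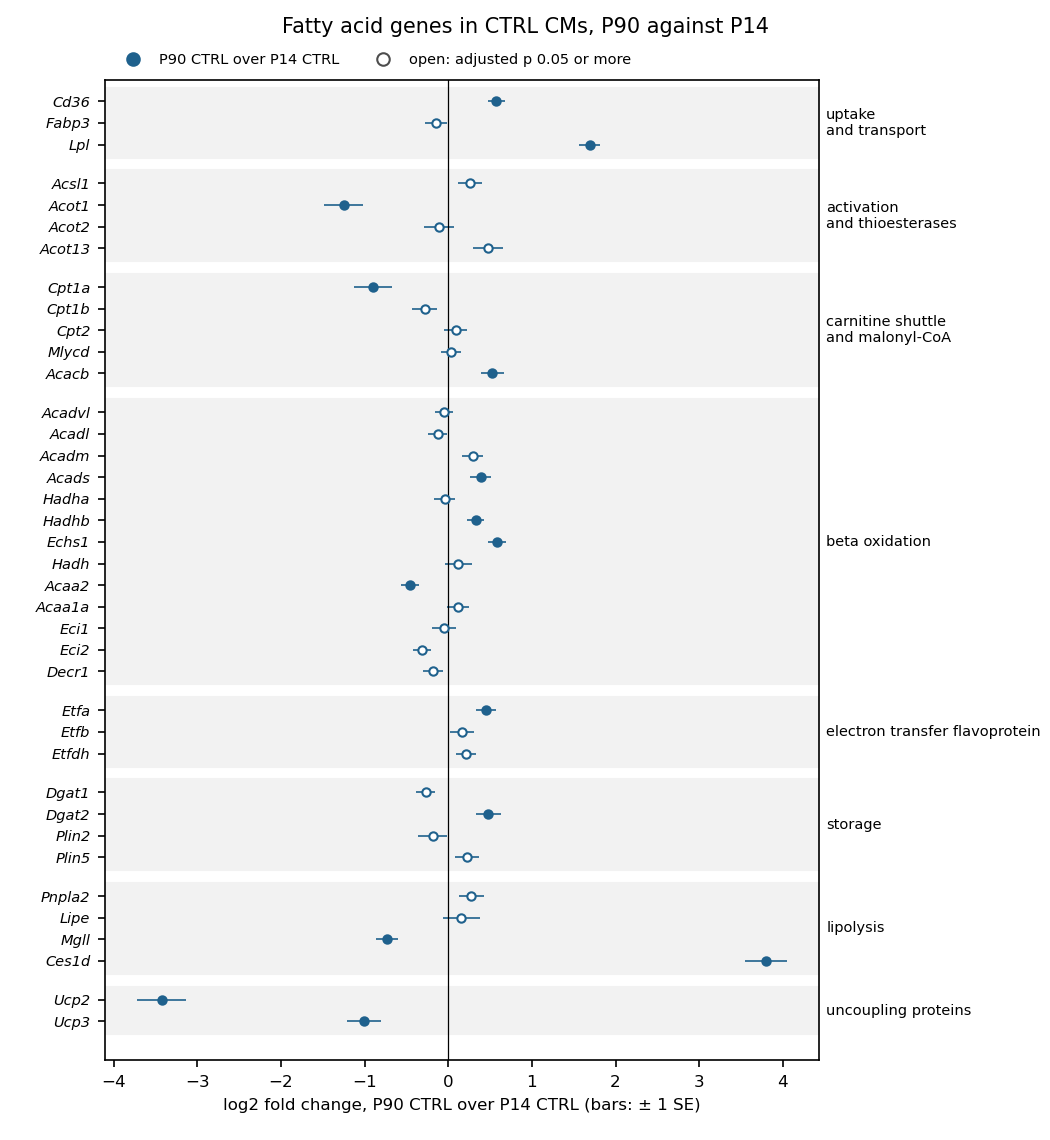
The log2 fold change of P90 CTRL over P14 CTRL (horizontal axis, bars are ± 1 SE) is plotted for each gene by step, with filled points for an adjusted p under 0.05. Ces1d at 3.80 and Ucp2 at -3.42 mark the ends of the range, and the beta-oxidation genes lie between -0.46 and 0.58.

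Other genes of the pathway, 88 in all, were read from the same fits. In neonatal KO 85 were tested, 16 were called lower and 2 higher, with a median of -0.28. Among all genes tested there, 4.6% were called lower and 3.99% higher. Mitochondrial oxidation outside the set had 7 of 14 lower: Acad10, Acad11 and Acad12 of the dehydrogenase family, Hsd17b10 and Acat1 of the cycle and of ketone and isoleucine breakdown, and Pcca and Mcee, which lead odd-chain products to succinyl-CoA. Their fold changes were -1.03 to -0.51, and all 14 of the list were negative. Slc25a20, the translocase that carries acylcarnitine across the inner membrane, was lower by -0.62 ± 0.14 (adjusted p = 0.0286). In the peroxisome, 4 of 14 were lower: Phyh (-0.82), Amacr (-0.62), Abcd3 (-0.52) and Hsd17b4 (-0.43). Around the lipid droplet, G0s2, an inhibitor of Pnpla2, was lower (-1.14 ± 0.22, adjusted p = 0.0218), as was the acyltransferase Agpat2 (-0.69). Cidea, a droplet fusion protein, was higher (0.66 ± 0.10, adjusted p = 0.0132), as was Lpin2, a phosphatidate phosphatase (0.77). Uptake and activation genes outside the set had 0 of 9 and 0 of 8 called, with 1 and 3 at an unadjusted p under 0.05 and 0 and 1 called by DESeq2.

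Of 19 genes listed as regulators of lipid oxidation, 2 were called lower in neonatal KO, and both are partners of nuclear receptors. DESeq2 called 3 of the 19 lower and 1 higher. Over all genes edgeR called 4.6% lower and 3.99% higher, and DESeq2 called 1000 lower and 787 higher of 20702. The part of these regulators in the fatty acid results was not tested. Rxrg, the retinoid X receptor gamma, was at 99.6 ± 19.5 CPM in P14 CTRL and 36.1 ± 9.36 CPM in P14 KO (-1.47 ± 0.22, adjusted p = 0.0116). Ppargc1b, a coactivator, was at 107 ± 2.35 CPM and 62.3 ± 7.19 CPM (SD, n = 3 each; -0.79 ± 0.11, adjusted p = 0.0104). The study singled out both genes on these same samples, so they are not independent evidence. Ppara, the receptor for fatty acids, did not pass (-0.60 ± 0.22, adjusted p = 0.138). In adult KO 0 of 84 tested pathway genes were called by edgeR, 17 had an unadjusted p under 0.05, and DESeq2 called 4, of which 2 were lower (Plin4 and Prkaa2) and 2 higher (Ech1 and Cidea), named here after their values were seen. Over all genes in adult KO, DESeq2 called 164 lower and 148 higher of 19496. The difference between stages was lower for 4 genes, Rxrg (-1.36), Phyh (-0.89), Ech1 (-0.74) and Pcca (-0.57), and higher for Esrrg, an orphan receptor of oxidative metabolism (0.70 ± 0.13, adjusted p = 0.0252). For this difference edgeR called 0.958% of all genes tested lower and 0.818% higher.

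The promoter windows of the set were searched for motifs of the factors named here, as a description. RefSeq windows of 300 bases were found for 30 of the 38 genes. Those not found were Lpl, Acot13, Cpt1b, Acaa2, Decr1, Dgat1, Dgat2 and Ces1d. The CArG box, the element that SRF binds, was present in 0 of the 30 genes and in 1.81% of all 27025 genes with a window. Only its strict form was searched, and at that background share a count of 0 in 30 genes does not set them apart. The study mapped SRF binding in P14 and adult hearts directly, by sequencing DNA pulled down with tagged SRF, and many sites lay far from promoters. Those sites were not read here, so the count does not show whether SRF binds near these genes. AGGTCA, the element of nuclear receptors such as the RXR partners, was present on either strand in 9 of the 30 genes (30%) and in 18.1% of all genes, and its direct repeat with 1 base of any kind between the copies in 0 of the 30 and 0.0481% of all genes. Of the 15 genes called lower in neonatal KO that had a window, 5 held AGGTCA (Acadvl, Acadm, Echs1, Plin5 and Ucp3). Cd36, Cpt1a, Acacb and Plin2, which were not called, held it too. It was absent from the windows of Hadhb, Etfa and Etfb, whose KO effect also differed between the stages. These shares were not tested. A match says only that these letters occur in the window. The windows of Acadvl and Echs1 are shown with the AGGTCA in capitals, since the KO effect on both genes differed between the stages and both hold the element upstream of the start, at positions -87 and -83. A further gene with both properties, Acadm, holds it at -249 and is not shown, since the match lies at the edge of its window.
Acadvl, chr11:70015379-70015678, minus strand: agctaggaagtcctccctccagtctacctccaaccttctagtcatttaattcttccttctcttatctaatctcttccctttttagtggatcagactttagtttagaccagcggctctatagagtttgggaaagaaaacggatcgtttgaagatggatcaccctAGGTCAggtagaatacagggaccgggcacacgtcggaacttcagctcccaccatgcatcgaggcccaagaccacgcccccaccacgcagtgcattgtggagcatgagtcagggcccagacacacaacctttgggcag
Echs1, chr7:140116372-140116671, minus strand: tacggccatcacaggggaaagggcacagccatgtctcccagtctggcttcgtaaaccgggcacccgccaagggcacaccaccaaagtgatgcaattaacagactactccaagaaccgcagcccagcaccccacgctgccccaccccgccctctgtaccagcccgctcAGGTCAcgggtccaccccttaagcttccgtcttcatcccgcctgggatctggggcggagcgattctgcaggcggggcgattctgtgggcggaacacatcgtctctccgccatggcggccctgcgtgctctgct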

How the data were processed

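FP+ CMs were profiled by SMART-Seq v4 and Nextera XT libraries with single-end reads on a NextSeq 500. The authors deposited raw counts per gene, 1 table per stage, made with STAR (2.5.3a) and featureCounts (Subread 1.5.2) on mm10 per the submitters' processing notes. The settings for strand and for reads that map to several places were not given in the sources used here, so genes that share exons or have close copies are uncertain.

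Counts were tested in R (4.3.3) with edgeR (4.0.16) quasi-likelihood F-tests after TMM scaling and filterByExpr, within each stage, for the difference of the KO effects in all 12 samples, and between the CTRL groups. P-values were Benjamini-Hochberg adjusted over all genes tested, with a threshold of 0.05. The scripts were tested on simulated data. Alternatives were DESeq2 (1.42.0), RLE or no scaling factors, no filter, a replicate block and a gene length correction. Each sample was also left out in turn, and all samples were fitted together for the KO effects. A sex term was fitted for neonatal KO and the stage difference only, with samples of at least 100 Y-linked counts taken as male. None was fitted for adult KO or between the CTRL groups. Members and lists were chosen with earlier results of these data known. All 38 members were named. Values in every sample were given for called members, Srf and the member with the highest CPM per kb of each step, and other values were added where a result turned on them. Other pathway genes were named where they passed in a KO or stage-difference fit. The series describes biological replicates, and no source used here ties them to litters, so p-values measure the spread between these samples.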

Additional observations from a re-analysis of the deposited data

Results flagged for a closer look

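The KO effect of 8 fatty acid genes differed between the stages, neonatal minus adult, in edgeR's interaction test (adjusted p under 0.05), on the log2 scale. Stage cannot be told apart from time since injection, injection route or table. Ces1d differed by -2.35, a pattern already known from earlier results of these data. Dgat2 differed by -1.28. In beta-oxidation, Echs1 differed by -0.83, Acadvl by -0.79, Acadm by -0.78 and Hadhb by -0.77. In the electron transfer flavoprotein, Etfb differed by -0.83 and Etfa by -0.77. Groups of 3 samples were too small to test for single samples far from the others.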

How the results depend on the processing

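In neonatal KO 14 to 25 genes were called lower in the fits of all samples, and 3 to 16 when 1 sample was left out. Over all genes, 577 of 12546 were lower in the main fit, 319 with total counts as library size and 1000 of 20702 by DESeq2. The gene called higher, Ucp2, became 0 with a sex term, and 0 to 1 when 1 sample was left out. In adult KO 1 gene was called lower by DESeq2, with the replicate block, with the gene length correction and with both together, 2 without a filter on low counts, and 0 to 1 when 1 sample was left out. Called higher in adult KO was 1 gene without the filter and 1 with the replicate block, and 0 whichever sample was left out. Over all genes, 340 of 11808 were lower and 315 higher in adult KO with the replicate block. With the length correction 36 were lower and 48 higher, and by DESeq2 164 and 148 of 19496. Counts over all genes without the filter or without 1 sample are not given here. The median of the 38 genes in adult KO was 0.017, and -0.051 with the length correction. The stage difference was called lower for 20 genes by DESeq2, 14 with the replicate block and 0 to 13 when 1 sample was left out, and higher for 0 throughout. Over all genes, DESeq2 called 590 lower and 304 higher of 21268, and the block 405 and 282 of 12841. Between the CTRL groups 5 genes were higher with total counts as library size, and 4 to 12 higher and 4 to 7 lower when 1 sample was left out. Total counts shifted the median of all genes by 0.22 in neonatal KO, 0.17 in the stage difference and -0.13 between the CTRL groups. With them the neonatal median of the 38 genes was -0.31, and their summed level was 25786 CPM in P14 KO, 34962 in P90 CTRL and 36012 in P90 KO, against 22412, 37941 and 38136. The cause of these shifts was not tested. None of the 38 genes that was called changed direction in the fits run. The pathway and marker genes outside the 38 were followed only with DESeq2 and the replicate block.

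Samples with the same replicate number correlated in their deviations from the group means by 0.047, 0.15 and 0.36 at P14 and 0.18, -0.00034 and 0.054 at P90, and not every sample correlated best with its own number, so the numbers were not taken to pair the samples. With the replicate block 21 genes were lower and 1 higher in neonatal KO, and 6 lower and 7 higher between the CTRL groups. Over all genes the block called 812 lower and 717 higher in neonatal KO, and 1514 and 1625 between the CTRL groups. Depth, at 9740389 counts or more, puts the level of 3 counts at 0.308 CPM or less, far under the set apart from Ces1d in P14 KO.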
